A study of Mus musculus with 12 samples.

Results

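Wnt signalling genes were followed in murine enteroids that lacked either of the histone deacetylases Hdac1 and Hdac2. The set held 49 of the 18929 genes listed in the deposited count tables and was chosen by gene name and role. It comprised 13 Wnt ligands, 10 Frizzled receptors, 2 LRP co-receptors, Lgr4 with the ubiquitin ligases Rnf43 and Znrf3, 3 Dishevelled genes, and Porcn and Wls, which act on the ligands before release. The others were 3 secreted inhibitors (Dkk4, Notum and Sfrp5), the cytoplasmic inhibitor Nkd1, Ctnnb1 (β-catenin) with Apc, Axin1 and Gsk3b of its destruction complex, 4 TCF/LEF factors, and the target genes Myc, Sox9, Cd44 and Ccnd1. All 49 were found, 47 of them in both tables. Wnt10b was listed only in the table of Hdac1-deleted enteroids and Wnt2 only in that of Hdac2-deleted enteroids.

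Wnt ligands are lipid-modified by Porcn, carried to the cell surface by Wls and bound by a Frizzled receptor together with Lrp5 or Lrp6. Dishevelled then disables the destruction complex, so that β-catenin accumulates and acts with TCF/LEF factors on target genes. Rnf43 and Znrf3 remove Frizzled receptors from the surface, and R-spondins bound to Lgr receptors counter them. In the small intestine this pathway maintains crypt stem cells, and Paneth cells supply Wnt3.

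Enteroids, crypt-derived epithelial cultures grown in a gel, came from the jejunum of mice of a mixed C57BL/6 J, 129SV and CD1 background. The villin promoter drives Cre in the intestinal epithelium, and floxed Hdac1 or floxed Hdac2 was deleted in the mutants. The controls are described both as villin-Cre and as wild-type in the sources. Cultures of each of the 3 groups were kept for 5 days in ENR medium, which contains EGF, Noggin and R-Spondin 1, and were sampled as 4 libraries per group, 12 in all. Crypts came from 1 mouse per genotype, so the genotype cannot be told apart from the mouse and its enteroid line. The labels do not say whether the 4 libraries were separate cultures, and p-values measure only the spread between these libraries, which may be technical. Because whole enteroids were sequenced, fewer cells of a type and less RNA per cell cannot be told apart.

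Libraries held 20693200 to 30658628 counts, so that 3 counts corresponded to 0.0971 to 0.145 CPM (counts per 1000000 counts of the library, after TMM scaling). Hdac1 was at 90.6 ± 2.76 CPM in control and 4.23 ± 0.834 CPM in Hdac1-deleted enteroids (SD, n = 4). Hdac2 was at 137.0 ± 3.85 CPM in control and 75.9 ± 2.89 CPM in Hdac2-deleted enteroids, and whether the counts that remained came from outside the deleted part was not tested. Control 1 stood apart in a length-dependent way, with a Spearman correlation of −0.408 between each gene's deviation and its exon length over 14462 genes, against 0.302 and 0.284 in controls 2 and 3. Chromosome 19 as a whole was shifted downwards in both mutants (median log2 fold change −0.53 and −0.52 for Hdac1-deleted and Hdac2-deleted enteroids), and each of the 18 others had a median from −0.052 to 0.12. Epithelial markers summed to 4862 to 6281 CPM, and 6 of 8 stromal markers, Foxl1 and Gli1 included, had at most 3 counts in every library.

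Promoters are shown for 3 of the members whose RNA differed from control and whose RefSeq window lay outside the annotated gene body. They are the ligand gene Wnt6, the inhibitor gene Sfrp5 and the ligand carrier gene Wls. Fzd7, Lgr4, Dvl2, Cd44 and Wnt9b also met these conditions and are not shown. Each sequence is the 250 bases before the RefSeq start (GRCm38.p6), 5′ to 3′ on the gene's strand, with CG dinucleotides in capitals. Wnt6 lies at chr1:74771642-74771891 on the plus strand, Sfrp5 at chr19:42202253-42202502 on the minus strand and Wls at chr3:159839400-159839649 on the plus strand.
Wnt6: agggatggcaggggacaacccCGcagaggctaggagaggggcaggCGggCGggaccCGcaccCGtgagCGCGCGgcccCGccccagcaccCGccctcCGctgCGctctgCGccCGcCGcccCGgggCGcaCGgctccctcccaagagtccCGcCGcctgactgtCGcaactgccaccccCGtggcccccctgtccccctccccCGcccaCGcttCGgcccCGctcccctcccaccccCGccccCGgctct
Sfrp5: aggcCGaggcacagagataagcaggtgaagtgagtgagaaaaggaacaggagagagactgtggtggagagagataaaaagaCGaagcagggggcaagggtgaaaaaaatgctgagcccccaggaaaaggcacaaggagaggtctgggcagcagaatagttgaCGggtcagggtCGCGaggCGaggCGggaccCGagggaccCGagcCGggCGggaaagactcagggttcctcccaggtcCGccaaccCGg
Wls: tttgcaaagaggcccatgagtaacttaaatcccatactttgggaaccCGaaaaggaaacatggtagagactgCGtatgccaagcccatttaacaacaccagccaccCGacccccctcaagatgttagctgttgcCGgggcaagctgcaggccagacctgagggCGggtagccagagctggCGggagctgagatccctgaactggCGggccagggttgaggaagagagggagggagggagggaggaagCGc
The Wnt6 window held 28 CG dinucleotides, the Sfrp5 window 13 and the Wls window 8, against a median of 6 and quartiles of 2 and 16 over the 32817 windows of all genes. Fewer CG dinucleotides were found in 92.4%, 68.5% and 57.0% of all windows, respectively. Searched on both strands, the 3 windows held none of 4 motifs of the TCF/LEF type: CTTTGAA, found in 4.5% of all windows, CTTTGAT, found in 3.2%, CTTTGTT, found in 5.0%, and CTTTGTA, found in 3.2%. At least one of these motifs was present in 14.8% of all windows and in 5 of 41 windows of the 31 members with an entry (12.2%): those of Fzd7, Lef1, Tcf7l2, Wnt11 and Wnt5b.

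Per exon length (CPM per kb of exon), Ctnnb1 was the highest member, at 216 CPM per kb in control enteroids. Wnt3, the ligand made by Paneth cells, was at 2.67, Wnt9b at 0.387, and Wnt6 and Wnt4 at 0.149 and 0.140 CPM per kb. Among the Frizzled receptors, Fzd5 at 21.7 and Fzd7 at 15.5 CPM per kb stood above the other 8, and Lrp5 at 33.4 stood above Lrp6 at 8.05. As a description of proportions with no test, Wnt3 made up 72.0% of the summed per-length level of the 11 ligands listed in both tables in control, 70.3% in Hdac1-deleted and 58.5% in Hdac2-deleted enteroids. The summed ligand level itself was 3.72, 3.89 and 4.56 CPM per kb, respectively. Fzd5 made up 45.9% of the Frizzled sum in control, 62.8% in Hdac1-deleted and 55.3% in Hdac2-deleted enteroids, while the share of Fzd7 was 32.8%, 22.7% and 27.3%.

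**Figure D1:**
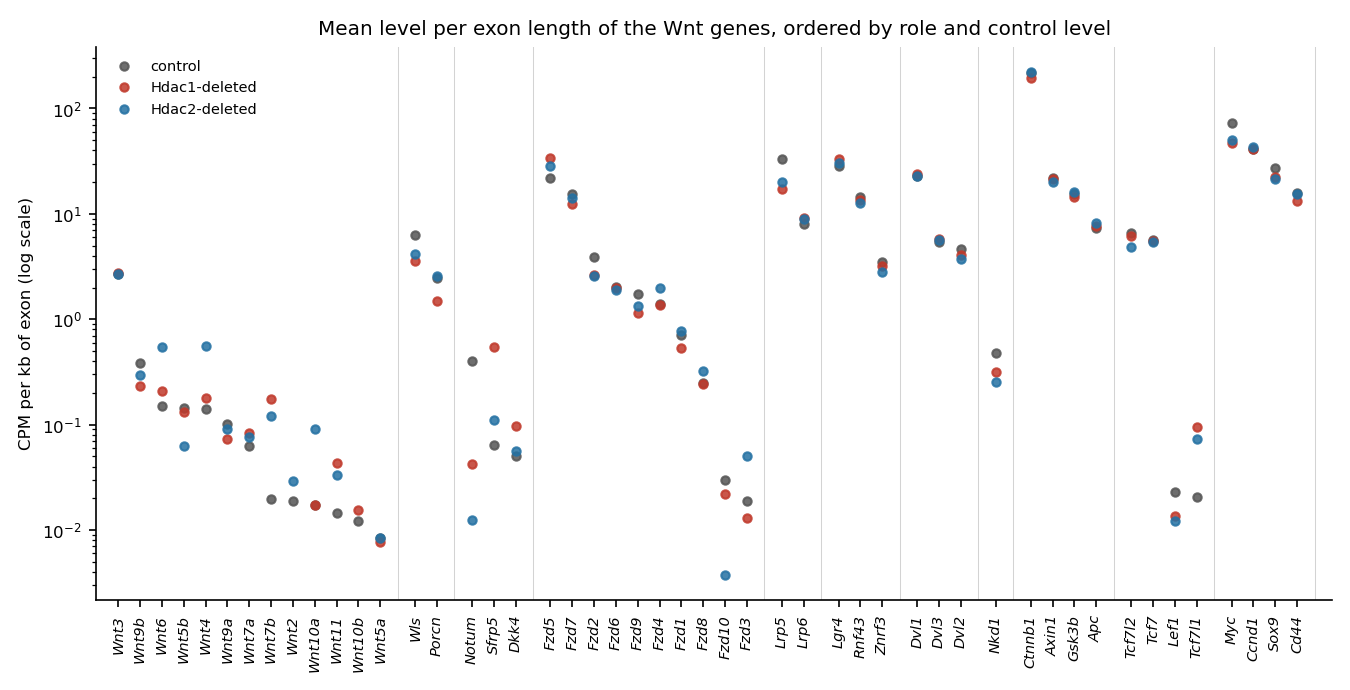
Mean level of each of the 49 Wnt genes per exon length (CPM per kb of exon, log scale), by role along the horizontal axis; grey, red and blue dots are the means of 4 control, 4 Hdac1-deleted and 4 Hdac2-deleted libraries, and Wnt10b and Wnt2 were listed for 1 mutant each. Ctnnb1 is highest at 216 CPM per kb in control, and the ligands other than Wnt3 lie below 1.

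Differential expression was assessed by the quasi-likelihood F test of edgeR across every gene above a low-count filter, adjusting p by Benjamini-Hochberg, and calls needed an adjusted p no higher than 0.05. Of 36 members tested in Hdac1-deleted enteroids, 6 were higher and 15 lower than in control, against 32.7% and 31.9% of all 14246 genes tested. With a change of more than 2-fold also required, 2 members were higher and 1 lower, against 6.87% and 3.71% of all genes. In Hdac2-deleted enteroids, 6 of 35 tested members were higher and 14 lower (31.4% and 30.9% of 14007 genes), and 3 were higher and 1 lower by more than 2-fold (5.45% and 2.84%). A direct comparison of the mutants called 8 of 37 members higher and 12 lower in Hdac1-deleted enteroids (22.3% and 23.7% of 14510 genes), with 1 higher and 3 lower by more than 2-fold (2.74% and 2.89%). The median log2 fold change of the tested members was −0.07, −0.03 and 0.02 in the 3 comparisons, against 0.00, 0.00 and 0.01 over all tested genes. Without control 1, 5 members were higher and 16 lower in Hdac1-deleted enteroids, and 9 were higher and 14 lower in Hdac2-deleted enteroids. Wnt7b was 1 of these 9 and entered because the filter then needed fewer libraries. The shares over all genes were not computed without control 1. A member that passed the filter only through the group in which it was high had to differ, and the low-count members Wnt6, Wnt7b, Sfrp5, Notum and Fzd3 are of this kind. The filter needed 4 libraries at 0.344 to 0.374 counts per 1000000, and in at least 1 comparison each of these genes reached that level in 1 or 0 of the 4 libraries of its lower group. Every member past 2-fold in Hdac1-deleted enteroids against control was of this kind.

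Both comparisons with control share the 4 control libraries. Of the 34 members tested in both, 10 were lower in both mutants, namely Dvl2, Fzd2, Fzd7, Fzd9, Lrp5, Myc, Nkd1, Notum, Sox9 and Wls. Fzd5 and Lgr4 were higher in both, and 0 were called in opposite directions. Of all 13851 genes tested in both, 22.6% were lower in both, 22.3% higher in both and 3.74% called in opposite directions. A further 7 were called only in Hdac1-deleted enteroids, of which Cd44, Ctnnb1, Fzd1 and Porcn also differed between the mutants directly. The 7 called only in Hdac2-deleted enteroids, Axin1, Fzd4, Rnf43, Tcf7l2, Wnt4, Wnt6 and Znrf3, all differed directly, Rnf43 at an adjusted p of 0.047. Over all 14510 genes tested between the mutants, 22.3% were higher and 23.7% lower in Hdac1-deleted enteroids. The share of direct differences among all genes called in 1 mutant only was not computed. The remaining 8, Apc, Ccnd1, Dvl1, Fzd6, Fzd8, Gsk3b, Tcf7 and Wnt3, were called in neither. Over the 13851 genes, 16.1% were called only in Hdac1-deleted enteroids, 13.8% only in Hdac2-deleted enteroids and 21.5% in neither.

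**Figure D2:**
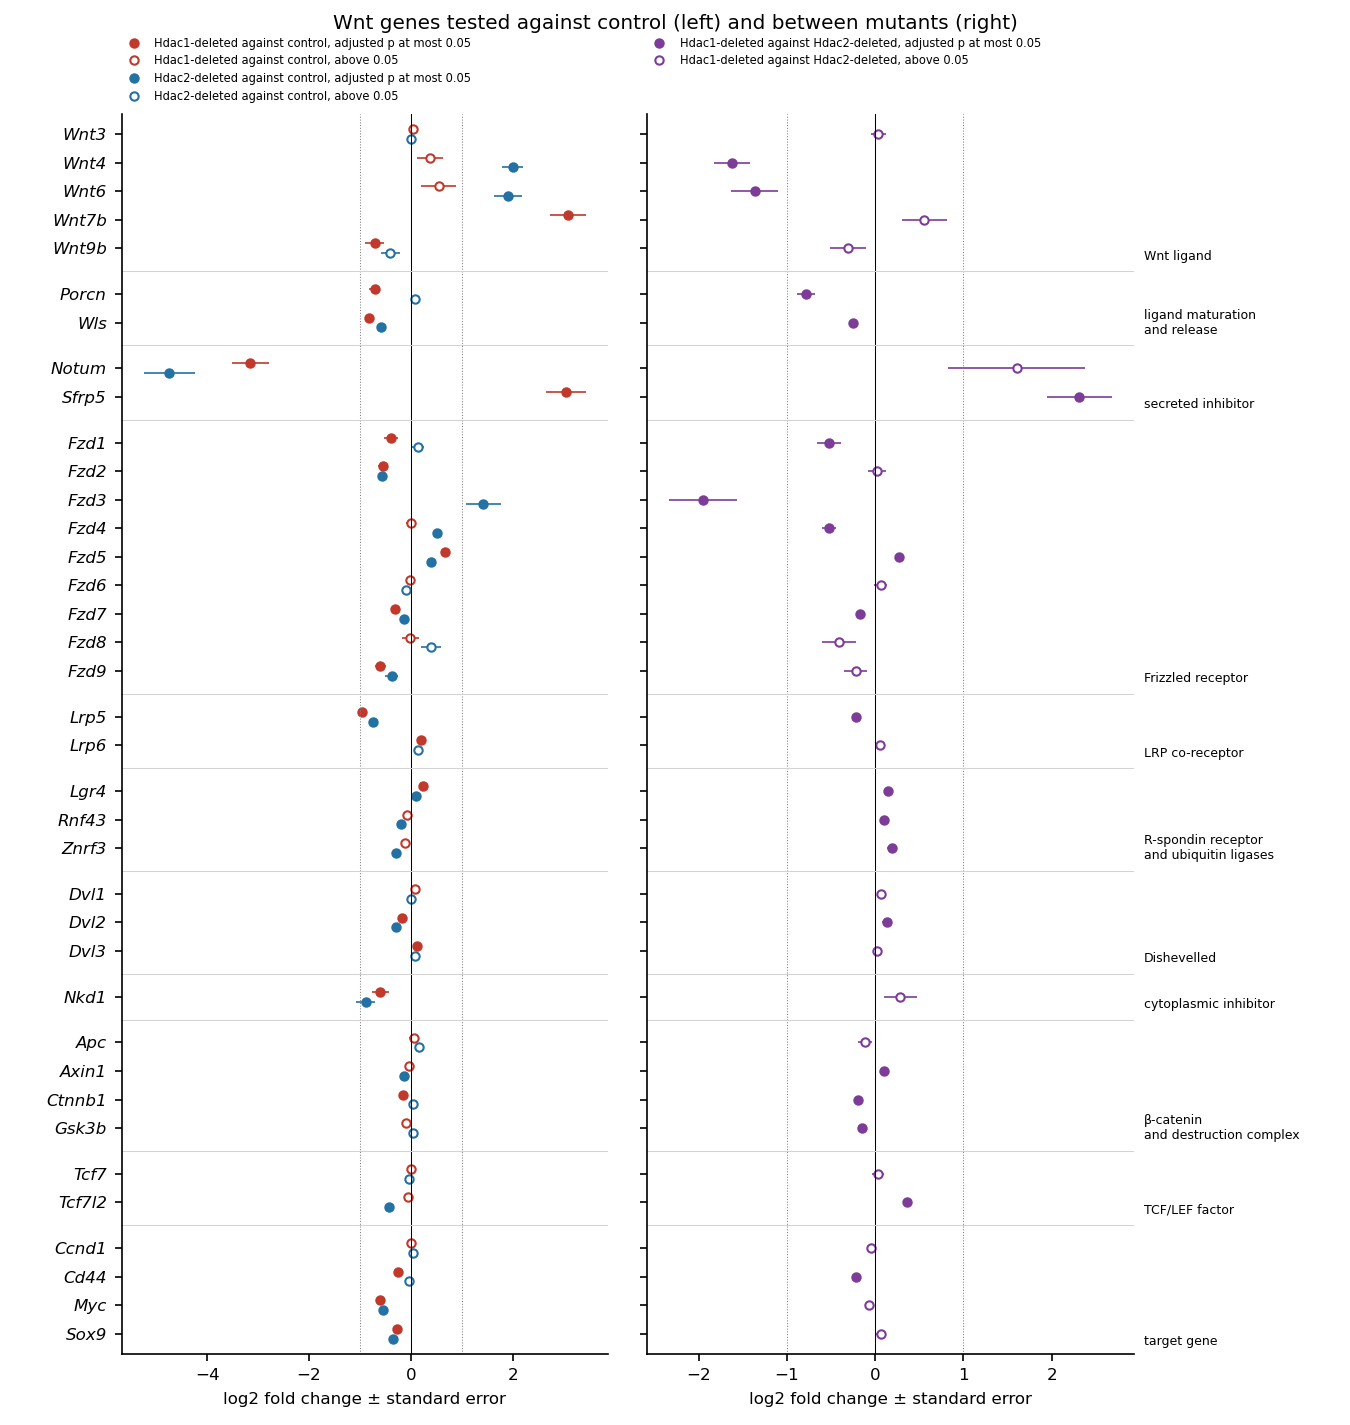
log2 fold change ± standard error of every tested Wnt gene, grouped by role on the vertical axis, against control on the left (red Hdac1-deleted, blue Hdac2-deleted) and as Hdac1-deleted against Hdac2-deleted on the right; filled dots have an adjusted p of at most 0.05 and dotted lines mark 2-fold. Notum lies furthest to the left at −3.15 and −4.75, and most other members lie within 2-fold.

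Wnt4 and Wnt6 rose in Hdac2-deleted enteroids and differed directly between the mutants. Wnt7b rose in Hdac1-deleted enteroids and was also above control in every Hdac2-deleted library, and Wnt3 was called in neither mutant. Of the 13 ligands, 5 could be tested in Hdac1-deleted enteroids (1 higher, 1 lower) and 4 in Hdac2-deleted enteroids (2 higher, 0 lower). The shares higher and lower over all tested genes were 32.7% and 31.9% in Hdac1-deleted and 31.4% and 30.9% in Hdac2-deleted enteroids.

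Wnt4 (chromosome 4, 137277489 to 137299726, plus strand) encodes a ligand often linked to β-catenin-independent signalling. It was at 0.503, 0.601, 0.696 and 0.543 CPM in the 4 control libraries, 0.675, 0.745, 1.08 and 0.508 CPM in the Hdac1-deleted and 2.25, 2.93, 2.03 and 2.13 CPM in the Hdac2-deleted libraries. All 4 Hdac2-deleted libraries were above all 8 others, and the Hdac1-deleted libraries overlapped control. Against control, Wnt4 rose 4.00-fold in Hdac2-deleted enteroids (log2 fold change 2.00 ± 0.20 SE, edgeR adjusted p = 2.1e-08) whereas the log2 fold change in Hdac1-deleted enteroids was 0.38 ± 0.26 (adjusted p = 0.20). The mutants differed directly, with a log2 fold change of −1.62 ± 0.20 for Hdac1-deleted against Hdac2-deleted (adjusted p = 2.7e-07).

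Wnt6 (chromosome 1, 74771892 to 74785322, plus strand), whose CG-rich promoter is printed above, had the same order of groups. Control libraries were at 0.235, 0.318, 0.299 and 0.459 CPM, Hdac1-deleted at 0.225, 0.421, 0.688 and 0.508 CPM and Hdac2-deleted at 1.40, 0.977, 1.065 and 1.39 CPM. The Hdac2-deleted libraries again overlapped neither other group. Wnt6 rose 3.76-fold in Hdac2-deleted enteroids (log2 fold change 1.91 ± 0.27, adjusted p = 2.5e-06), whereas the log2 fold change in Hdac1-deleted enteroids was 0.55 ± 0.35 (adjusted p = 0.18). In the first of these comparisons it passed the filter through the Hdac2-deleted libraries, since 1 of 4 control libraries reached the level required. The direct difference was −1.37 ± 0.27 on the log2 scale (adjusted p = 0.00014). Wnt10a, the neighbouring ligand gene 6193 bases away on the same chromosome, did not pass the filter on low counts. Its 4 Hdac2-deleted libraries held 5, 5, 7 and 4 counts, against 3, 1, 1 and 0 in control and 1, 1, 2 and 1 in Hdac1-deleted libraries. Pooled over libraries and scaled by depth, this was a ratio of 4.89 to control, with an exact 95% counting interval of 1.79 to 16.6.

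Wnt7b (chromosome 15, 85535437 to 85582473, minus strand) was close to the detection limit in control enteroids, with 4, 2, 3 and 2 counts. Hdac1-deleted libraries held 28, 28, 19 and 24 counts (1.05, 0.907, 0.623 and 0.870 CPM) and Hdac2-deleted libraries 10, 17, 12 and 17 counts (0.369, 0.664, 0.581 and 0.737 CPM). Every mutant library was above every control library, and the mutants overlapped. Wnt7b rose in Hdac1-deleted enteroids (log2 fold change 3.09 ± 0.35, adjusted p = 1.8e-07), where the ratio of pooled counts was 8.74 (95% counting interval 4.68 to 18.1). In that comparison it passed the filter through the Hdac1-deleted libraries, since 0 of 4 control libraries reached the level required, so it had to differ. It fell just short of the filter in the comparison of Hdac2-deleted enteroids with control, where the pooled ratio was 5.92 (3.07 to 12.5). There it entered the test whenever any 1 of the 8 libraries was left out, with log2 fold changes of 2.39 to 2.71. The filter then needed only 3 libraries, as 1 group held 3. Wnt7b passed it through the Hdac2-deleted libraries, so it again had to differ. The direct difference between the mutants was 0.56 ± 0.26 (adjusted p = 0.079), and without Hdac1-deleted 3 it was 0.69 (adjusted p = 0.040). Exons of Wnt7b overlap the opposite-strand gene AU022754, and the strand setting of the counting is not given in the sources used here.

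Wnt3 was called in no comparison. Its level was 8.48, 8.06, 8.52 and 7.80 CPM in control, 8.44, 8.19, 7.93 and 9.06 CPM in Hdac1-deleted and 7.49, 7.81, 7.94 and 9.67 CPM in Hdac2-deleted libraries. The 3 groups overlapped. The log2 fold change was 0.04 ± 0.08 in Hdac1-deleted (adjusted p = 0.63, 95% interval −0.10 to 0.19) and 0.01 ± 0.09 in Hdac2-deleted enteroids (adjusted p = 0.95, −0.16 to 0.17). Wnt9b, which lies 24328 bases from Wnt3, fell in Hdac1-deleted enteroids from 1.75 ± 0.335 to 1.05 ± 0.221 CPM (log2 fold change −0.71, adjusted p = 0.0031). In Hdac2-deleted enteroids its level was 1.33 ± 0.186 CPM (−0.40, adjusted p = 0.065), a difference that reached an adjusted p of 0.049 when control 2 or control 4 was left out, and the mutants did not pass a direct test (adjusted p = 0.23).

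Besides Wnt10a, the ligand genes Wnt2, Wnt5a, Wnt5b, Wnt7a, Wnt9a, Wnt10b and Wnt11 were below the filter in every comparison or missing from a table. Wnt5b held 42 counts over the control libraries, 40 over the Hdac1-deleted and 16 over the Hdac2-deleted libraries. The ratio of Hdac2-deleted to control was 0.443 (95% counting interval 0.233 to 0.805). Wnt11 held 7, 21 and 13 counts, a ratio of 2.91 (1.19 to 8.11) in Hdac1-deleted and 2.16 (0.801 to 6.40) in Hdac2-deleted enteroids. For Wnt2, Wnt5a, Wnt7a, Wnt9a and Wnt10b, summed counts lay between 5 and 38 per group and each interval against control included 1, so that differences in these 5 genes were not detectable at this depth. Counting intervals cover counting error only.

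Of the genes for ligand modification and release, Wls fell in both mutants and Porcn in Hdac1-deleted enteroids. Wls, which escorts Wnt ligands to the cell surface, was at 58.6, 57.1, 53.3 and 54.5 CPM in control, 33.4, 30.1, 30.3 and 30.8 CPM in Hdac1-deleted and 37.3, 38.5, 36.0 and 36.0 CPM in Hdac2-deleted libraries. No libraries of different groups overlapped. Wls fell by 0.83 ± 0.05 on the log2 scale in Hdac1-deleted (adjusted p = 4.8e-12) and by 0.58 ± 0.04 in Hdac2-deleted enteroids (adjusted p = 1.3e-10), and the mutants differed by −0.25 ± 0.05 (adjusted p = 7.3e-05). Porcn, the acyltransferase that attaches the lipid to Wnt ligands, was at 7.14, 7.28, 7.56 and 7.43 CPM in control libraries. It was at 3.53, 4.01, 4.79 and 5.47 CPM in Hdac1-deleted and 7.89, 7.58, 7.36 and 7.85 CPM in Hdac2-deleted libraries. Only the Hdac1-deleted libraries were apart, all of them below the other 8, and they spread more than the others. Porcn fell by 0.71 ± 0.11 in Hdac1-deleted enteroids (adjusted p = 1e-05), against a value of 0.07 ± 0.08 in Hdac2-deleted enteroids (adjusted p = 0.41), and the direct difference was −0.78 ± 0.10 (adjusted p = 5e-07). Wls, Porcn, Lrp5 and Fzd5 were picked for library-by-library values after those values had been seen.

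Of the secreted inhibitors, Notum fell in both mutants and Sfrp5 rose in Hdac1-deleted enteroids. Notum (chromosome 11, 120653788 to 120661175, minus strand), a carboxylesterase that removes the lipid from Wnt ligands and is itself a Wnt target, was counted 19, 34, 26 and 29 times in control libraries. It was counted 2, 3, 4 and 3 times in Hdac1-deleted libraries, and 1, 1, 0 and 1 times in Hdac2-deleted libraries. In CPM, control lay between 0.637 and 1.21, Hdac1-deleted between 0.0750 and 0.131 and Hdac2-deleted between 0 and 0.0434, with no overlap between any groups. Notum fell in Hdac1-deleted enteroids by 3.15 ± 0.36 on the log2 scale (adjusted p = 2.1e-07), where pooled counts were 9.27 times lower (95% counting interval 5.10 to 18.5). In Hdac2-deleted enteroids it fell by 4.75 ± 0.50 (adjusted p = 4.6e-08), and 3 counts against 108 gave a ratio 30.9 times lower (10.3 to 152). In both comparisons Notum passed the filter through the control libraries, since 0 of 4 mutant libraries reached the level required, so it had to differ. The direct difference between the mutants did not pass (log2 fold change 1.60 ± 0.78, adjusted p = 0.096). Notum exons overlap the opposite-strand genes Notumos and Myadml2os.

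Sfrp5 (chromosome 19, 42197971 to 42202252, minus strand), a secreted Frizzled-related protein that binds Wnt ligands, was counted 5, 6, 2 and 1 times in control and 17, 48, 32 and 25 times in Hdac1-deleted libraries, against 7, 3, 7 and 3 in Hdac2-deleted libraries. These were levels of 0.0417 to 0.212 CPM in control, 0.638 to 1.55 CPM in Hdac1-deleted and 0.117 to 0.339 CPM in Hdac2-deleted enteroids. The Hdac1-deleted libraries were above all 8 others, while Hdac2-deleted and control libraries overlapped. Sfrp5 rose in Hdac1-deleted enteroids (log2 fold change 3.05 ± 0.40, adjusted p = 1.6e-06, ratio of pooled counts 8.46, 95% counting interval 4.85 to 15.9) and differed from Hdac2-deleted enteroids directly (2.31 ± 0.37, adjusted p = 1.1e-05). In both tests Sfrp5 passed the filter through the Hdac1-deleted libraries and so had to differ. In each, 0 of 4 libraries of the other group reached the level required. In Hdac2-deleted enteroids it stayed below the filter, with a ratio to control of 1.66 (0.799 to 3.56). Dkk4, which blocks LRP co-receptors, held 7, 15 and 7 counts over control, Hdac1-deleted and Hdac2-deleted libraries, and its intervals included 1. By proportions alone, Notum was 78.6% of the summed per-length level of these 3 inhibitors in control enteroids, 6.42% in Hdac1-deleted and 8.57% in Hdac2-deleted enteroids. The last share rests on 3 Notum counts and ranged from 0 to 15.1% across libraries. The sum itself was 0.521, 0.687 and 0.180 CPM per kb, respectively.

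**Figure D3:**
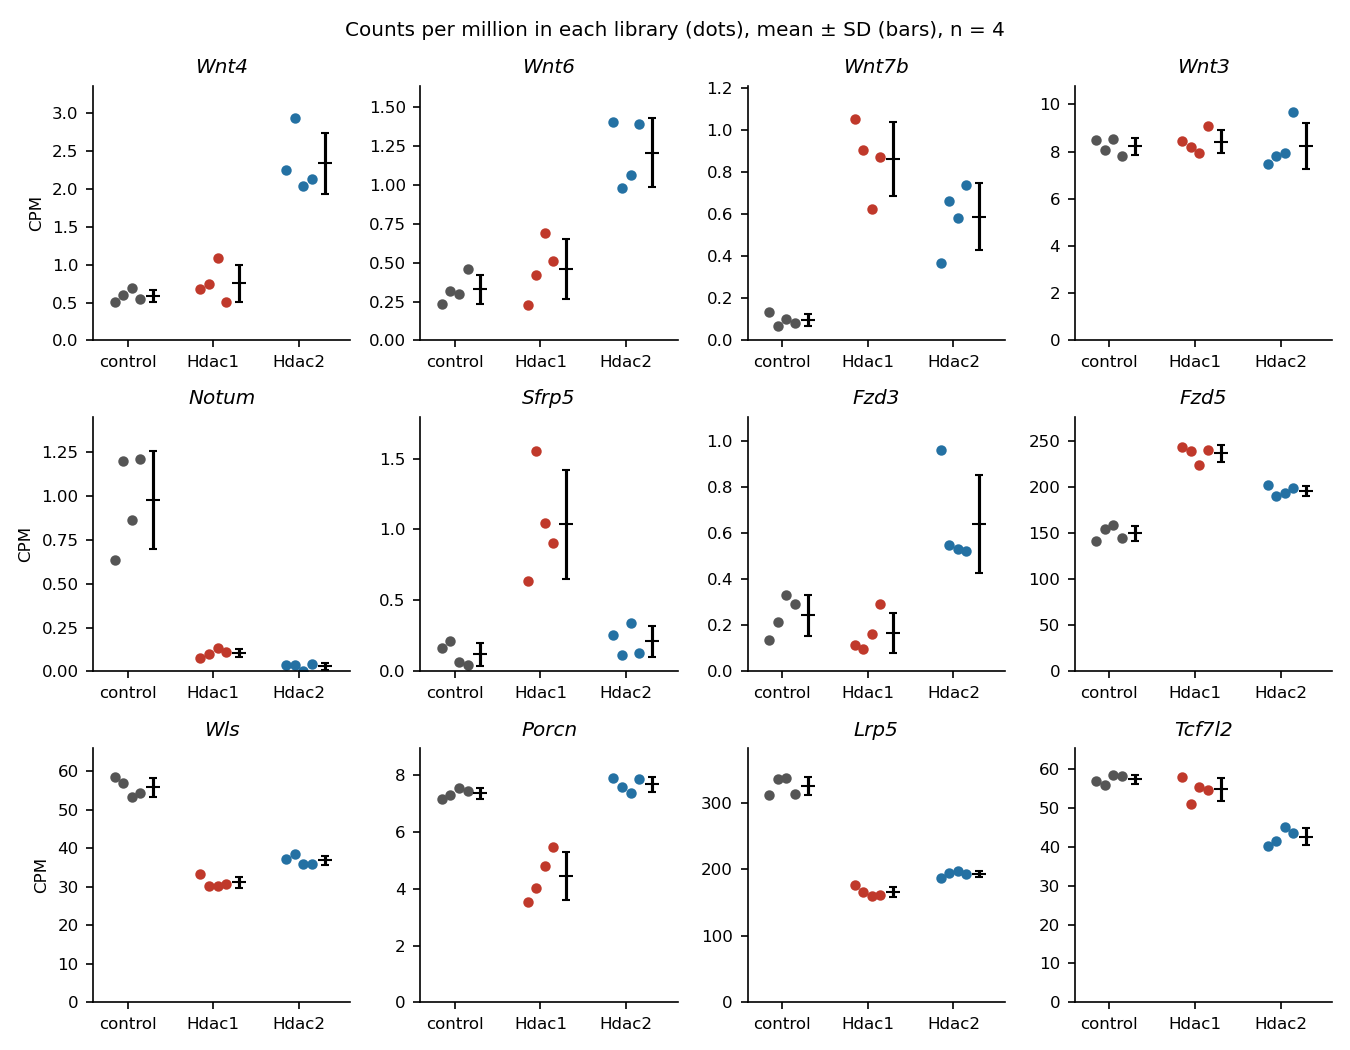
CPM of 12 Wnt genes (one panel per gene, each axis starting at 0) in each library (dots) of control, Hdac1-deleted and Hdac2-deleted enteroids, with the mean ± SD of 4 libraries as a bar beside them. Wnt4 in the Hdac2-deleted libraries lies at 2.03 to 2.93 CPM above all others, and Notum in the mutants lies at or below 0.131 CPM.

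Frizzled receptor genes moved in both directions, with Fzd5, the most abundant, higher in both mutants. Of 10, 8 were tested in Hdac1-deleted enteroids (1 higher, 4 lower) and 9 in Hdac2-deleted enteroids (3 higher, 3 lower). Over all tested genes, 32.7% were higher and 31.9% lower in Hdac1-deleted enteroids, and 31.4% and 30.9% in Hdac2-deleted enteroids. Fzd5, which transduces Wnt3 signals and is needed for Paneth cell maturation, was at 141, 155, 159 and 145 CPM in control, 243, 240, 224 and 241 CPM in Hdac1-deleted and 203, 190, 193 and 199 CPM in Hdac2-deleted libraries. The 3 groups did not overlap. Fzd5 rose by a log2 fold change of 0.67 ± 0.04 in Hdac1-deleted (adjusted p = 7.3e-12) and 0.40 ± 0.04 in Hdac2-deleted enteroids (adjusted p = 3.1e-09), and the mutants differed by 0.27 ± 0.04 (adjusted p = 4.7e-07). Its exons overlap an opposite-strand gene, Gm38058.

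Fzd7, a receptor used by crypt stem cells, fell from 70.3 ± 1.59 CPM to 56.2 ± 2.57 CPM in Hdac1-deleted (log2 fold change −0.31, adjusted p = 1.2e-06) and 63.6 ± 1.15 CPM in Hdac2-deleted enteroids (−0.13, adjusted p = 0.0024), and differed directly (adjusted p = 0.00031). Fzd2 and Fzd9 also fell in both, by 0.55 and 0.60 in Hdac1-deleted and by 0.57 and 0.38 on the log2 scale in Hdac2-deleted enteroids. Fzd4 rose in Hdac2-deleted enteroids, from 9.35 ± 1.057 to 13.3 ± 0.722 CPM (0.52, adjusted p = 7.3e-06), against 9.22 ± 0.613 CPM in Hdac1-deleted enteroids, and differed directly (−0.53, adjusted p = 3.4e-06). Fzd1 fell in Hdac1-deleted enteroids from 2.96 ± 0.472 to 2.25 ± 0.246 CPM (−0.39, adjusted p = 0.021). That call was lost without control 1 (adjusted p = 0.063), control 2 (0.076) or Hdac1-deleted 4 (0.065). Fzd6 (9.11 to 9.76 CPM) and Fzd8 (1.46 to 1.94 CPM) were called in no comparison, although Fzd8 reached an adjusted p of 0.033 in Hdac2-deleted enteroids without Hdac2-deleted 4.

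Fzd3 (chromosome 14, 65192449 to 65262463, minus strand), a receptor known for planar polarity, was low throughout. Its level was 0.134, 0.212, 0.332 and 0.292 CPM in control, 0.113, 0.0972, 0.164 and 0.290 CPM in Hdac1-deleted and 0.959, 0.547, 0.532 and 0.521 CPM in Hdac2-deleted libraries. Hdac2-deleted 1 was the highest, and all 4 Hdac2-deleted libraries were above the other 8. Fzd3 rose in Hdac2-deleted enteroids (log2 fold change 1.43 ± 0.35, adjusted p = 0.0013), and the direct difference was −1.95 ± 0.38 (adjusted p = 0.00014). Without Hdac2-deleted 1 the changes were 1.15 and −1.67. In both tests Fzd3 passed the filter through the Hdac2-deleted libraries and so had to differ. In each, 0 of 4 libraries of the other group reached the level required. It was below the filter in Hdac1-deleted enteroids, with 19 counts against 27 in control. Fzd10 held 11, 8 and 1 counts over control, Hdac1-deleted and Hdac2-deleted libraries, a Hdac2-deleted to control ratio of 0.106 (95% counting interval 0.00246 to 0.728).

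The co-receptor gene Lrp5 fell in both mutants. Its levels were 312, 336, 338 and 314 CPM in control, 177, 166, 160 and 162 CPM in Hdac1-deleted and 187, 195, 198 and 193 CPM in Hdac2-deleted libraries. Every mutant library was far below every control library, and the mutants did not overlap each other. Lrp5 fell by 0.95 ± 0.04 on the log2 scale in Hdac1-deleted (adjusted p = 2.1e-14) and by 0.74 ± 0.03 in Hdac2-deleted enteroids (adjusted p = 3.4e-14), and differed directly by −0.22 ± 0.04 (adjusted p = 9.6e-06). Lrp6, which acts in the same complexes, was at 110 ± 10.9 CPM in control, 126 ± 7.01 CPM in Hdac1-deleted (log2 fold change 0.21, adjusted p = 0.013) and 121 ± 3.27 CPM in Hdac2-deleted enteroids (0.15, adjusted p = 0.052). Without control 1, the lowest control library at 95.3 CPM, the Hdac2-deleted value was 0.08 with an adjusted p of 0.036. It was 0.19 (0.0053) without control 2 and 0.17 (0.042) without control 3, and the adjusted p was 0.017 with DESeq2, 0.047 with RLE size factors, 0.0056 with the replicate number as a block and 0.044 with all 12 libraries in 1 fit.

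Lrp5, Sfrp5 and Tcf7l2 lie on chromosome 19. The median of that chromosome was −0.53 over 471 genes in Hdac1-deleted and −0.52 over 461 genes in Hdac2-deleted enteroids. Relative to it, Lrp5 was lower by 0.43 and 0.22, and 9.8% and 21% of chromosome 19 genes had a lower log2 fold change. Tcf7l2 was 0.47 and 0.09 above it, and 81.5% and 58.8% of chromosome 19 genes had a lower log2 fold change. Sfrp5 was 3.57 above the median in Hdac1-deleted enteroids. Between the mutants the chromosome's median was 0.02, and Lrp5 and Tcf7l2 differed from it by −0.24 and 0.35. Porcn lies on the X chromosome, whose medians were −0.02 and −0.04. Chromosome 15, where Myc, Wnt7b, Fzd6 and Wnt10b lie, had a median of −0.16 between the mutants. Against control its median was −0.05 in Hdac1-deleted and 0.12 in Hdac2-deleted enteroids. The part of these chromosome-wide shifts in the results was not tested.

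**Figure D4:**
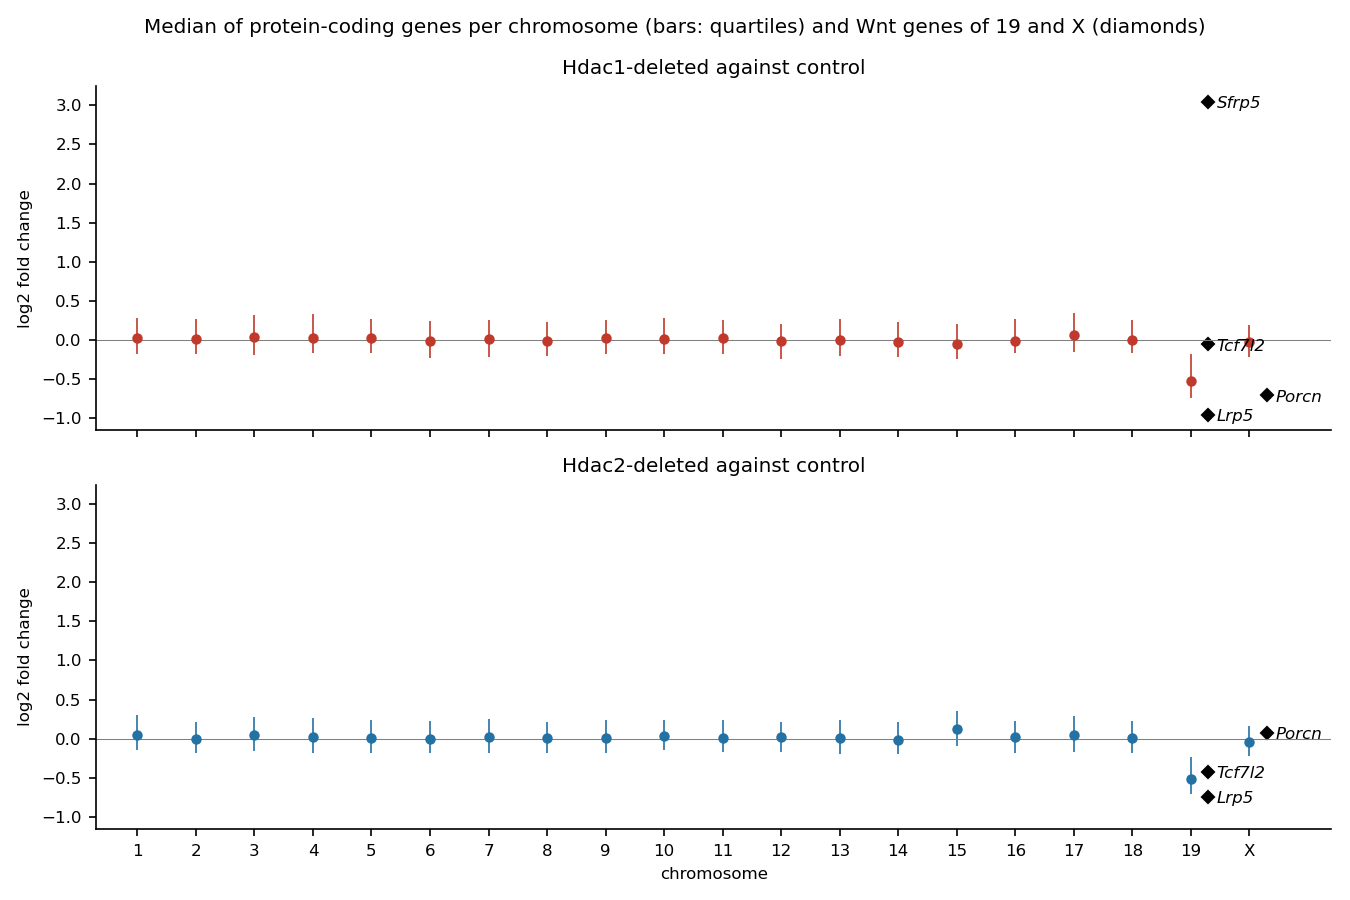
Median log2 fold change of protein-coding genes on each chromosome (dots, bars are quartiles) in Hdac1-deleted (top) and Hdac2-deleted enteroids (bottom) against control, with the Wnt genes of chromosomes 19 and X as black diamonds. The dot of chromosome 19 lies at −0.53 and −0.52, below those of all other autosomes, and Lrp5 lies at −0.95 and −0.74.

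Among the genes that set Frizzled turnover, Lgr4, a receptor for R-spondins, was higher in both mutants. It was at 162, 176, 169 and 164 CPM in control, 203, 201, 190 and 192 CPM in Hdac1-deleted and 177, 176, 179 and 179 CPM in Hdac2-deleted libraries. Hdac1-deleted libraries were above all others, and Hdac2-deleted libraries lay just above the highest control. Lgr4 rose by a log2 fold change of 0.24 ± 0.03 in Hdac1-deleted enteroids (adjusted p = 3.6e-06) and by 0.09 ± 0.03 in Hdac2-deleted enteroids (adjusted p = 0.010), a call that was lost without control 4 (adjusted p = 0.055). The mutants differed by 0.15 ± 0.03 (adjusted p = 0.00029). Rnf43 and Znrf3, the ligases that remove Frizzled receptors, fell in Hdac2-deleted enteroids, from 94.9 ± 2.63 to 82.8 ± 4.26 CPM (log2 fold change −0.19, adjusted p = 0.00023) and from 27.4 ± 2.4 to 22.1 ± 0.604 CPM (−0.30, adjusted p = 0.00019). In Hdac1-deleted enteroids their values were −0.08 (adjusted p = 0.093) and −0.11 (0.12), which became −0.17 (0.0091) for Znrf3 without control 1. The direct difference was 0.10 for Rnf43 (adjusted p = 0.047, lost in 9 of the 12 fits that left out a library) and 0.19 for Znrf3 (0.010).

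Of the 3 Dishevelled genes, which relay the signal from Frizzled, Dvl2 fell in both mutants. It went from 29.1 ± 0.391 CPM in control to 25.7 ± 1.63 CPM in Hdac1-deleted (log2 fold change −0.16, adjusted p = 0.0082) and 23.6 ± 0.614 CPM in Hdac2-deleted enteroids (−0.30, adjusted p = 9.3e-06). The direct difference of Dvl2 (0.13, adjusted p = 0.039) was lost in 6 of the 12 fits that left out a library. Dvl3 rose in Hdac1-deleted enteroids by 0.12 (adjusted p = 0.028), a call lost without control 1 (0.10), control 4 (0.063) or Hdac1-deleted 1 (0.080), and Dvl1 was called in no comparison. Nkd1, a Dishevelled-binding inhibitor that is also a Wnt target, fell from 2.17 ± 0.457 CPM to 1.43 ± 0.115 CPM in Hdac1-deleted (−0.60, adjusted p = 0.0042) and 1.17 ± 0.0799 CPM in Hdac2-deleted enteroids (−0.89, adjusted p = 0.00024), with a direct difference of 0.29 (adjusted p = 0.22).

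Ctnnb1, encoding β-catenin, was at 1133, 1134, 1120 and 1101 CPM in control, 1005, 1008, 991 and 1000 CPM in Hdac1-deleted and 1141, 1157, 1140 and 1155 CPM in Hdac2-deleted libraries. The Hdac1-deleted libraries lay below all 8 others, and the Hdac2-deleted ones lay just above control. Ctnnb1 fell by 0.15 ± 0.03 on the log2 scale in Hdac1-deleted enteroids (adjusted p = 0.00024), against a value of 0.04 ± 0.03 in Hdac2-deleted enteroids (adjusted p = 0.16), and the direct difference was −0.20 ± 0.03 (adjusted p = 1.3e-06). Of the destruction complex, the scaffold gene Axin1 fell in Hdac2-deleted enteroids from 84.3 ± 1.17 to 76.4 ± 2.31 CPM (−0.13, adjusted p = 0.0019), against 81.9 ± 1.57 CPM in Hdac1-deleted enteroids. The kinase gene Gsk3b was called in neither mutant but differed between them (−0.15, adjusted p = 0.0026), and without control 1 it was called lower in Hdac1-deleted enteroids (−0.15, adjusted p = 0.0011). Apc was called in no comparison, with values of 0.06 and 0.17 against control, and without control 1 the second was 0.09 with an adjusted p of 0.026.

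Of the TCF/LEF factors, which bring β-catenin to DNA, Tcf7l2 and Tcf7 held nearly all of the summed per-length level. Tcf7l2 was at 57.0, 55.9, 58.4 and 58.1 CPM in control, 57.8, 50.9, 55.4 and 54.6 CPM in Hdac1-deleted and 40.1, 41.5, 45.0 and 43.6 CPM in Hdac2-deleted libraries. The Hdac2-deleted libraries lay below all others, and the other groups overlapped. Tcf7l2 fell by 0.42 ± 0.04 in Hdac2-deleted enteroids (adjusted p = 1.8e-08), against a value of −0.05 ± 0.04 in Hdac1-deleted enteroids (adjusted p = 0.27) and the direct difference was 0.37 ± 0.04 (adjusted p = 1.4e-07). As given above, it lies on chromosome 19, whose median was −0.52 in Hdac2-deleted enteroids. Tcf7 was at 14.3 to 14.8 CPM in the 3 groups and was called in no comparison. Tcf7l1, a factor known as a repressor, was below the filter, with 9 counts over control, 43 over Hdac1-deleted and 27 over Hdac2-deleted libraries. These were ratios of 4.64 (95% counting interval 2.23 to 10.8) and 3.49 (1.59 to 8.44), and no mutant library overlapped control. Lef1 held 22, 14 and 10 counts, and its intervals included 1.

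Of the 4 target genes, 3 were lower in Hdac1-deleted and 2 in Hdac2-deleted enteroids, against 31.9% and 30.9% of all tested genes. Myc, a transcription factor that drives crypt proliferation, was at 202, 203, 203 and 189 CPM in control, 133, 133, 131 and 119 CPM in Hdac1-deleted and 136, 139, 134 and 136 CPM in Hdac2-deleted libraries. Every mutant library lay below every control library. Myc fell by 0.61 ± 0.04 in Hdac1-deleted (adjusted p = 2.2e-11) and by 0.54 ± 0.03 in Hdac2-deleted enteroids (adjusted p = 1.7e-12), and the direct difference was −0.08 ± 0.03 (adjusted p = 0.071). Sox9, which is needed for Paneth cells, was at 113, 116, 115 and 108 CPM in control, 97.1, 97.5, 95.0 and 80.0 CPM in Hdac1-deleted and 91.3, 86.7, 86.0 and 90.8 CPM in Hdac2-deleted libraries. Control libraries were again above all mutant libraries, and the mutants overlapped. Sox9 fell by 0.28 ± 0.05 (adjusted p = 0.00016) and 0.34 ± 0.03 (adjusted p = 1.3e-08), with a direct difference of 0.06 ± 0.05 (adjusted p = 0.32), which was 0.12 (0.0051) without Hdac1-deleted 4.

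Cd44, a surface glycoprotein of crypt cells, was at 104, 114, 112 and 99.7 CPM in control, 96.8, 92.5, 87.9 and 82.0 CPM in Hdac1-deleted and 104, 107, 102 and 104 CPM in Hdac2-deleted libraries. Hdac1-deleted libraries lay below control, and Hdac2-deleted libraries overlapped it. Cd44 fell by 0.24 ± 0.05 in Hdac1-deleted enteroids (adjusted p = 0.0004), against a value of −0.03 ± 0.04 in Hdac2-deleted enteroids (adjusted p = 0.51) and differed directly (−0.21 ± 0.05, adjusted p = 0.00038). Ccnd1, cyclin D1, was at 194 to 201 CPM in the 3 groups and was called in no comparison. Ctnnb1, Ccnd1, Dvl1, Dvl2, Fzd6, Lef1, Tcf7l1, Wnt5a and Wnt11 also share exonic bases with opposite-strand genes, so their counts are uncertain in the same way as those of Notum, Wnt7b and Fzd5.

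A list of 13 crypt Wnt targets outside the members showed 3 higher and 8 lower in Hdac1-deleted enteroids and 4 higher and 8 lower in Hdac2-deleted enteroids. Of all genes tested, 32.7% were higher and 31.9% lower in the first comparison and 31.4% and 30.9% in the second. The median log2 fold change of the 13 was −0.31 and −0.35, against 0.00 for all tested genes in each comparison. Between the mutants, 3 were higher and 5 lower in Hdac1-deleted enteroids, against 22.3% and 23.7% of all genes. Tnfrsf19, a TNF receptor family member of crypt cells, was the only one past 2-fold, rising from 1.53 ± 0.343 CPM to 3.73 ± 0.205 CPM in Hdac1-deleted (1.28 ± 0.14, adjusted p = 1.7e-07) and 3.23 ± 0.528 CPM in Hdac2-deleted enteroids (1.08 ± 0.17, adjusted p = 1.1e-05). Stem cell markers that are also Wnt targets, Lgr5 and Ascl2, are in the list. Lgr5 was at means of 251, 147 and 155 CPM in control, Hdac1-deleted and Hdac2-deleted enteroids, and Ascl2 at 41.9, 23.8 and 30.6 CPM. The crypt stem cell markers summed to 3354 to 3557 CPM in control, 1841 to 2160 CPM in Hdac1-deleted and 1528 to 1712 CPM in Hdac2-deleted libraries. Most of that sum was Olfm4, which is outside the list, at means of 2705, 1519 and 1147 CPM.

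**Figure D5:**
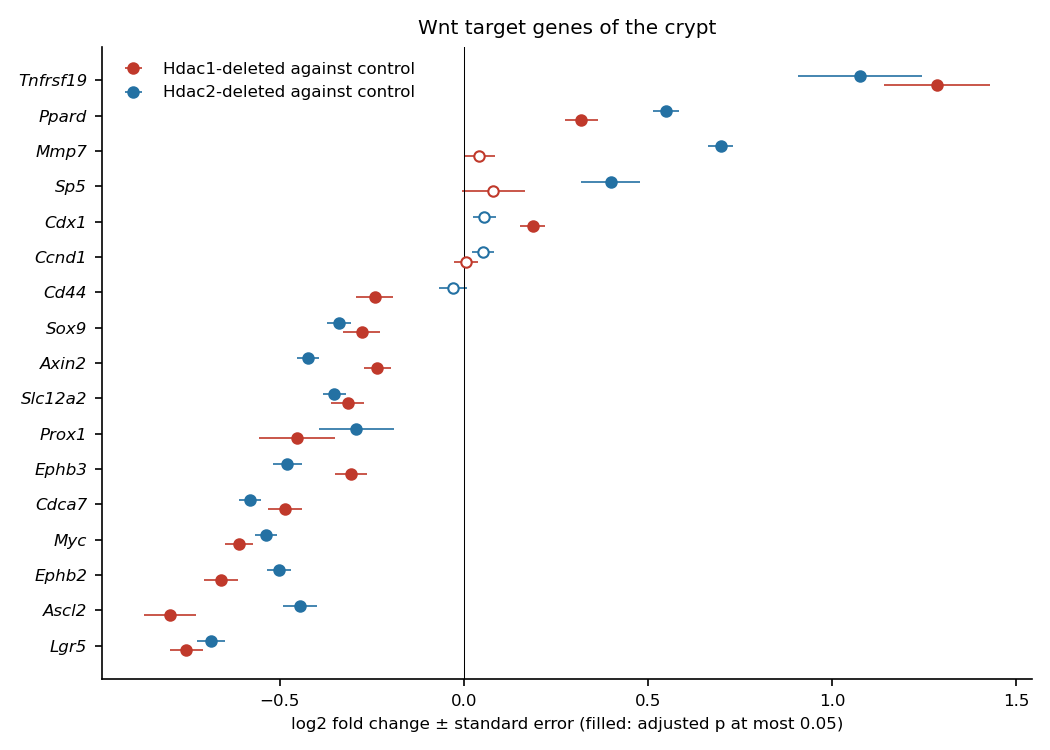
log2 fold change ± standard error against control of 17 Wnt target genes of the crypt (red Hdac1-deleted, blue Hdac2-deleted; filled dots have an adjusted p of at most 0.05), sorted by their sum. Most lie to the left of 0, Myc at −0.61 and −0.54, while Tnfrsf19 lies furthest to the right at 1.28 and 1.08.

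Of 65 other genes of the pathway, such as casein kinases, TLE co-repressors and planar polarity genes, 50 were tested. In Hdac1-deleted enteroids 12 were higher and 18 lower, and in Hdac2-deleted enteroids 9 were higher and 12 lower, with median log2 fold changes of −0.04 and −0.02. All tested genes were higher and lower in 32.7% and 31.9% of cases in Hdac1-deleted and in 31.4% and 30.9% in Hdac2-deleted enteroids. Among those lower in both mutants, Btrc, Frat1, Frat2 and Tnks2 lie on chromosome 19, whose median was −0.53 and −0.52. Tle4, lower in Hdac2-deleted enteroids, lies there too, and the part of that shift was not tested. Between the mutants, 13 were higher and 11 lower in Hdac1-deleted enteroids (22.3% and 23.7% of all genes). Prickle1, a planar polarity gene named after its values were seen, was the only one past 2-fold (log2 fold change 1.16 ± 0.38, adjusted p = 0.014), and 2 of 4 Hdac2-deleted libraries reached the level of the filter. In the comparisons with control only Gpc3, a glypican that binds Wnt and Hedgehog ligands, passed 2-fold, falling from 0.896 ± 0.116 CPM to 0.371 ± 0.105 CPM in Hdac1-deleted (−1.25 ± 0.26, adjusted p = 0.00028) and 0.210 ± 0.0431 CPM in Hdac2-deleted enteroids (−2.08 ± 0.30, adjusted p = 3.6e-06). In the Hdac1 comparison 3 of 4 Hdac1-deleted and 4 of 4 control libraries reached the level of the filter. In the Hdac2 comparison 0 of 4 Hdac2-deleted libraries did, so Gpc3 passed through the control libraries alone and had to differ.

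Summed levels of some other cell type markers differed between the groups. Enterocyte markers (7 of 7 listed, 7 called higher in each mutant) summed to 7786 to 8331 CPM in control, 15800 to 17930 CPM in Hdac1-deleted and 12500 to 14060 CPM in Hdac2-deleted libraries. Paneth cell markers (8 of 10 listed) summed to 2164 to 2520, 3111 to 3378 and 3403 to 3559 CPM. Of the 7 Paneth markers tested, 2 were higher and 2 lower in Hdac1-deleted enteroids, and 5 were higher and 1 lower in Hdac2-deleted enteroids. Over all tested genes the shares higher and lower were 32.7% and 31.9% in Hdac1-deleted and 31.4% and 30.9% in Hdac2-deleted enteroids. The lysozyme gene Lyz1 rose from a mean of 546 CPM to 1290 and 1208 CPM and Itln1 from 792.9 to 1112 and 1169 CPM, whereas Habp2 fell in both mutants (−1.03 and −0.39) and Ang4 fell in Hdac1-deleted enteroids (−0.63, adjusted p = 6.7e-11). Goblet cell markers summed to 1342 to 1607, 1339 to 1430 and 2133 to 2389 CPM, so that control and Hdac1-deleted libraries overlapped. In Hdac1-deleted enteroids Muc2 and Clca1 rose (0.99 and 1.22), Tff3 fell (−0.40), and Spdef and Fcgbp were not called. In Hdac2-deleted enteroids all but Spdef were called higher. Proliferation markers were at 792 to 923, 764 to 844 and 765 to 786 CPM, and Hdac1-deleted libraries overlapped both other groups. Top2a fell and Pcna rose in both mutants, and Mki67 was called in neither. Enteroendocrine cell markers summed to 204 to 217, 214 to 237 and 230 to 249 CPM. In Hdac2-deleted enteroids Chgb was called higher (0.28) and Chga lower (−0.18). In Hdac1-deleted enteroids both were called higher (0.11 and 0.14), and Neurod1 was called in neither mutant. Tuft cell markers summed to 4.96 to 5.59, 4.39 to 6.51 and 2.95 to 3.63 CPM. Immune cell markers (3 of 4 listed) were low but did not overlap, at 1.795 to 2.09 CPM in control, 2.49 to 3.63 CPM in Hdac1-deleted and 3.90 to 4.85 CPM in Hdac2-deleted libraries. Of these, Itgam rose in both mutants (1.28, adjusted p = 9e-06, and 1.69, adjusted p = 8.5e-08) and Cd68 in Hdac2-deleted enteroids (0.45, adjusted p = 0.035), while the leukocyte gene Ptprc was at 0.0375 to 0.0837 CPM in the 3 group means. The part of these marker sets in the differences of the Wnt genes was not tested. Stromal markers summed to at most 0.356 CPM in any library, and the endothelial markers Cdh5 and Kdr and the T cell marker Cd3e had at most 3 counts in every library.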

How the data were processed

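RNA of 12 enteroid libraries was sequenced as poly(A)-selected, directional libraries on a HiSeq4000 with paired reads of 100 bases. The authors aligned reads with STAR (2.4.0f1 in the submitters' processing notes) to GRCm38 after bcl2fastq 1.8.4, and deposited raw counts per gene in one table per mutant, each restricted to genes whose counts sum to 10 or more. The counting program and strand setting are not given in the sources used here. The same tables hold log2 fold changes, average log2 CPM, DESeq and edgeR p-values and normalised values, which were not used.

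Counts were tested with edgeR 4.0.16 (R 4.3.3; TMM normalisation, filterByExpr, robust quasi-likelihood F test, Benjamini-Hochberg over all tested genes). Fits of each mutant against control used 8 libraries, and the fit of the mutants against each other all 12. Calls needed an adjusted p no higher than 0.05, and under a second rule also a change of more than 2-fold. CPM values are counts per 1000000 of each library's listed counts after scaling by its TMM factor from the 12-library fit, and SDs are over 4 libraries. Exon lengths and positions came from GENCODE M21, which matched 99.4% of gene IDs. Ratios of pooled counts carry exact 95% intervals for counting error only. Checked on simulated counts with 200 changed genes, the test recovered 199, 199 and 197 of them in the Hdac1, Hdac2 and mutant comparisons. It made 11, 7 and 11 false calls. The simulation gave all genes the same dispersion and changed only genes of higher mean level. It therefore says nothing about low-count members such as Wnt6, Wnt7b, Fzd3, Notum and Sfrp5.

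Members and lists were chosen with earlier results of these data known. Full values are given for members past the 2-fold rule in any comparison (Wnt4, Wnt6, Wnt7b, Fzd3, Notum, Sfrp5) and for Wnt3, Lgr4, Ctnnb1, Tcf7l2, Sox9, Myc and Cd44; Lrp5, Wls, Fzd5 and Porcn were added after their values were seen. From other lists, at most 5 genes past 2-fold are named. Alternatives were DESeq2 1.42.0, other normalisations, filters, thresholds and samples, a replicate block and leaving out each library. RefSeq promoter windows matched 31 members.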

Additional observations from a re-analysis of the deposited data

Results flagged for a closer look

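In 5 of the 51 groups of 4 libraries examined among the fully reported members, 1 library lay apart from the other 3 by Dixon's test. Chance gives about 1 such group in 20. Fzd3 in Hdac2-deleted 1 was at 0.959 CPM, against 0.521 to 0.547 CPM in the other libraries. Notum in Hdac2-deleted 3, the shallowest library, was at 0 CPM, against 0.0369 to 0.0434 CPM, which is a difference of 1 count. Sox9 and Myc were both low in Hdac1-deleted 4, Sox9 at 80.0 CPM against 95.0 to 97.5 CPM and Myc at 119.4 CPM against 131.1 to 132.9 CPM. Myc was also low in control 4, at 188.7 CPM against 201.7 to 203.1 CPM.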

How the results depend on the processing

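None of the log2 fold changes of the 17 fully reported members changed sign where they were called. Under the alternatives other than leaving out a library, 332 of these values kept their side of the threshold, Myc between the mutants passed with the replicate block (−0.08, adjusted p = 0.046) and Lgr4 in Hdac2-deleted enteroids did not pass with library size alone (0.06, adjusted p = 0.076). With 1 library left out, 449 kept it and 3 did not.

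Without the filter on low counts, 6 members were higher and 3 lower by more than 2-fold in Hdac2-deleted enteroids, in place of 3 and 1. The additions were Wnt7b (2.52, adjusted p = 1.1e-05), Wnt10a (2.19, 0.0072), Tcf7l1 (1.75, 0.0087), Wnt5b (−1.15, 0.032) and Fzd10 (−2.75, 0.028). With the filter in place these 5 genes were not tested. Their counts were few, with 1 for Fzd10 over the Hdac2-deleted libraries against 11 over control, and 21 against 5 for Wnt10a. The share of all genes called was not computed for this fit or for the alternatives below. The counts of members therefore cannot be set against all genes there. Tcf7l1 was likewise added in Hdac1-deleted enteroids (2.16, 0.0004) and Wnt10a between the mutants (−2.22, 0.0061). At an adjusted p of at most 0.01, 4 members in place of 8 were higher in Hdac1-deleted than in Hdac2-deleted enteroids.

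Leaving out 1 library gave 5 to 7 higher and 14 to 16 lower members in Hdac1-deleted enteroids and 6 to 9 and 14 to 15 in Hdac2-deleted enteroids. Between the mutants the ranges were 7 to 9 higher and 12 to 13 lower. Past 2-fold, the number higher in Hdac2-deleted enteroids was 4 in each such fit, through Wnt7b. Between the mutants the number higher was 1 to 2, with Wnt5b added without control 1, control 2, Hdac1-deleted 2, Hdac2-deleted 1 or Hdac2-deleted 3. Both genes entered because the filter needed fewer libraries once a group held 3. Wnt7b then had to differ, since the control libraries stayed below the level required.

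Libraries with the same replicate number did not deviate together (correlations of −0.045 to 0.091), so the numbers were not taken as pairs. With the replicate number as a block, 5 members were higher and 15 lower in Hdac1-deleted enteroids, 7 and 14 in Hdac2-deleted enteroids, and 8 and 13 between the mutants. Counts of a few per library limit the ligands and secreted inhibitors.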
